A study of Mus musculus with 14 samples.

Results

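Mouse mitochondria carry a small circular genome of their own, and the RNAs it encodes were measured here in embryonic mouse forebrain with and without a Cre-driven double deletion. The genes were taken by symbol: a gene entered when the symbol paired with its identifier in the deposited tables begins with mt-. Of 56941 gene IDs, 37 met this rule. They comprised 13 protein-coding genes, 2 ribosomal RNA (rRNA) genes and 22 transfer RNA (tRNA) genes. On the annotated plus strand lay 28 of them, 12 for proteins, 2 for rRNAs and 14 for tRNAs. The other 9, which are mt-Nd6 and 8 tRNA genes, lay on the minus strand.

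The series holds 14 RNA-seq libraries. The dcKO (double conditional knockout) embryos came from crosses of mice with floxed Sbno1, mice with floxed Trp53 and the Emx1-Cre driver line, in which Cre acts in the progenitors of the dorsal telencephalon, so cells of other origin in the same tissue keep both genes. The groups were 4 libraries labelled dcKO from E18.5 cortex (cerebral cortex of embryos aged 18.5 days), 4 ff libraries (floxed controls) from cortex at E18.5, 3 dcKO libraries from telencephalon at E12.5 and 3 ff libraries from telencephalon at E12.5. Which alleles the ff embryos carried beyond that label is not given, there was no group with Cre alone or with 1 of the deletions, and stage and dissected tissue change together.

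In mammals the mitochondrial genome is copied into long RNAs that span almost a whole strand. The tRNAs that lie between the other genes are cut out, which frees the mRNAs and rRNAs, and most of the mRNAs then receive short poly(A) tails. The proteins are subunits of the respiratory chain and of ATP synthase, the rRNAs build the mitochondrial ribosome, and all other factors for copying, processing and translating these RNAs come from the nucleus. Neurons draw most of their ATP from this chain, and the embryonic cortex relies on it increasingly as neurons are made.

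The gene sequences show what short reads can and cannot assign. They are given 5′ to 3′ in the sense of the RNA, from the GENCODE M21 transcripts of the GRCm38 assembly. Some neighbours overlap on the same RNA. The first lines give the end of mt-Atp8 and the start of mt-Atp6, which both encode ATP synthase subunits. Their 43 shared bases are in capitals.
mt-Atp8 end: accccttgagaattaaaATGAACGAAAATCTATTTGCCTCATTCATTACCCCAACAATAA
mt-Atp6 start: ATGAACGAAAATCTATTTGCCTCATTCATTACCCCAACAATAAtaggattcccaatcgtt
The next lines do the same for mt-Nd4l and mt-Nd4, both of complex I, whose 7 shared bases are in capitals.
mt-Nd4l end: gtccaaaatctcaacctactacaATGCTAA
mt-Nd4 start: ATGCTAAaaattattcttccctcactaatg

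The mRNA ends matter because the libraries were made with a kit that captures poly(A). In 3 of the 13 mRNAs, mt-Co3, mt-Nd4 and mt-Cytb, the gene ends in a single T of the stop codon, and the poly(A) tail supplies the rest. As annotated, the other 10 genes end in a full stop codon. In mt-Nd1 and mt-Nd2 the last 2 bases of that codon also belong to the next tRNA gene on the strand, mt-Ti and mt-Tw. The last base of mt-Atp6, 1 in number, is likewise shared with mt-Co3. Where these mRNAs end after cutting was not tested. The stop codon, or the encoded part of it, is in capitals.
mt-Cytb end: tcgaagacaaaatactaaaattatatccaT
mt-Nd4 end: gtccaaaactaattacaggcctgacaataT
mt-Co1 end: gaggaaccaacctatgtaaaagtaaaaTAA
The genes mt-Nd5 and mt-Nd6 run towards each other from opposite strands and share 14 bases at their ends, so that only the strand of a read tells them apart there.
mt-Nd5 end: attatcttatactcaattaatctcgagTAA
mt-Nd6 end: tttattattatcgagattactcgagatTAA
Among the tested members with no near-complete nuclear copy, mt-Nd6 aside, the rRNAs had the largest folds between genotypes at E12.5 and between stages, so their last 60 bases are shown.
mt-Rnr1 end: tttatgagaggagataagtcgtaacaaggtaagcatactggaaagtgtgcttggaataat
mt-Rnr2 end: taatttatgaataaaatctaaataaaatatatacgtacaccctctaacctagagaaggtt

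Several members have near-identical copies in nuclear DNA, among which reads must be divided. A comparison of transcripts found 10 copies that share a run of at least 100 bases with a member, 7 on chromosome 1 and 3 on chromosome 2, and 8 members have at least 1. For mt-Co2, mt-Atp6, mt-Co3, mt-Nd3 and mt-Nd4l, over 98% of the gene lies in such shared runs. The copy of mt-Co3 has 783 bases without a difference, and the first 60 bases of both are shown.
mt-Co3: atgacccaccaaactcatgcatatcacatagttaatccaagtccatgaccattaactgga
Gm28437: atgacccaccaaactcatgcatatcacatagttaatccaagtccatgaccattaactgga
The copy of mt-Nd3 differs at 1 of 345 bases, T3C, with the mitochondrial base first and the position counted from the 5′ end of the gene. The base is in capitals.
mt-Nd3: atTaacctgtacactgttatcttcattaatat
Gm28438: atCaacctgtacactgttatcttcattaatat

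Total counts were 42035736 to 81961466 in 12 libraries, but 5980840 in E18.5 dcKO replicate 1 and 4919700.5 in E12.5 ff replicate 1. In the check of the labels with edgeR's quasi-likelihood test, Emx1 fell at both stages (log2 fold change −0.96 at E12.5, adjusted p = 0.0083, and −0.81 at E18.5, adjusted p = 8.3e-06). Sbno1 did not pass at E12.5 (−0.59, adjusted p = 0.051) or at E18.5 (−0.03, adjusted p = 0.68), and Trp53 fell at E18.5 (−0.20, adjusted p = 0.032) but not at E12.5 (−0.23, adjusted p = 0.22). The floxed exons are not given, so a gene's total may not register its deletion, and the E18.5 libraries are called by their label. All 8 telencephalon markers were detected in every library. By their Xist counts, E12.5 ff replicate 3 and E18.5 ff replicates 2 and 4 were read as female. All other libraries, including every dcKO library, were read as male, so sex was uneven between genotypes at both stages. With sex as a covariate, edgeR called 3 genes at E12.5, in place of 34, and 4779 at E18.5, in place of 5779, at an adjusted p below 0.05. For 11 of 14 samples the labels hold a library name whose genotype or stage differs from the title, so libraries were grouped by the genotype in the column names. The labels do not say that libraries came from separate embryos, so p-values measure only the spread between these libraries. Fewer cells of a type and less RNA per cell cannot be told apart in bulk tissue.

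The tRNA genes gave almost no signal. All 22 were at 0 in 12 of 14 libraries. The remaining counts were 1 read of mt-Tl1, a leucine tRNA, in replicate 4 of the E18.5 libraries labelled dcKO and 1 read of mt-Tm, a methionine tRNA, in replicate 2 of the same group. A count of 0 allows up to 3 counts, which in CPM (counts per 1e+06 counts of the library) is 0.0366 to 0.0714 CPM in the 12 deep libraries, 0.502 CPM in E18.5 dcKO replicate 1 and 0.610 CPM in E12.5 ff replicate 1, for counting error only. The tRNA genes are 59 to 75 bases long, shorter than the fragments sequenced. The 2 with a read are shown whole.
mt-Tl1: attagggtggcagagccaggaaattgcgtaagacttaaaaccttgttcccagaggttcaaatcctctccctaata
mt-Tm: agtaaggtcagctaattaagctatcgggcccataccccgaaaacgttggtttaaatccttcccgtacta
Because of these lengths and the poly(A) selection, the zeros describe the libraries and not the amount of tRNA in the tissue. The 15 protein and rRNA genes passed the filter on low counts in every comparison, and no tRNA gene did.

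Together the 37 genes took about 1% of the counts. Their share averaged 1.22% ± 0.214 in E18.5 libraries labelled dcKO (SD, n = 4), 1.04% ± 0.156 in E18.5 ff (SD, n = 4), 0.898% ± 0.0561 in E12.5 dcKO (SD, n = 3) and 0.732% ± 0.0672 in E12.5 ff (SD, n = 3). Nearly all of it came from the 12 protein genes of the plus strand, with 1.16%, 0.994%, 0.868% and 0.710% in the same order of groups. The rRNAs made up 0.0583% ± 0.0158, 0.0429% ± 0.00805, 0.0293% ± 0.00337 and 0.0183% ± 0.00222. As poly(A) capture was used, the rRNA values count only what that capture retained. A list of 11 nuclear RNAs without poly(A) tails was also summed, with 8 to 10 of them detected. They reached 887 to 2399, 931 to 4805, 846 to 1940 and 594 to 1266 CPM in the same order of groups. Nearly all of each sum came from 1 gene of the list, Rn18s-rs5, with 589 to 4735 CPM over the 14 libraries. The list's median log2 fold change of dcKO over ff was 0.27 at E12.5 and −1.46 at E18.5. For E18.5 over E12.5 it was 1.65 in ff and −0.29 in dcKO. The part of such retention in the rRNA values was not tested. With the counts of the nuclear copies added, the shares of all members were 1.84%, 1.62%, 1.44% and 1.14%.

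**Figure D1:**
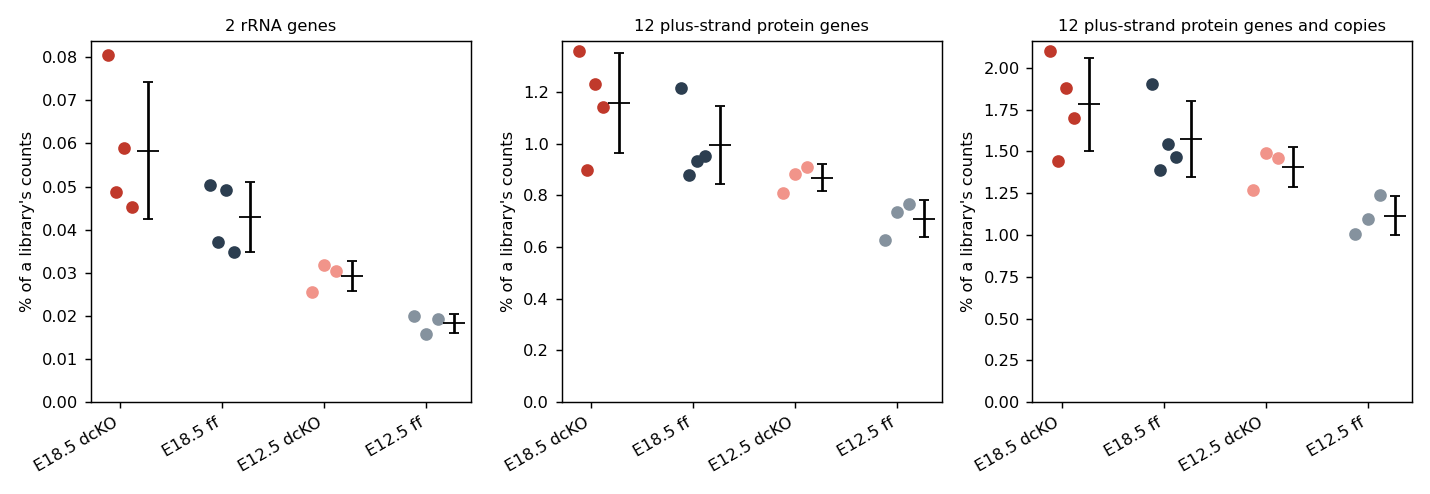
Percent of a library's counts in the 2 rRNA genes, in the 12 plus-strand protein genes, and in these protein genes with their nuclear copies, with 1 point per library and a bar for the mean ± SD beside each group (n = 4 at E18.5, n = 3 at E12.5). In each panel the 3 E12.5 dcKO libraries lie above the 3 E12.5 ff libraries, while the E18.5 groups overlap.

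Length-scaled levels, in TPM (length-normalised transcripts per 1e+06 transcripts), ranked mt-Atp8 highest in every group. That rank rests on division by the 20.5 to 49.3 bases at which a fragment of mt-Atp8 could start. By unscaled count it had 93.9 to 369 CPM, against 2396 to 5091 CPM for mt-Co1. mt-Atp8 encodes a short accessory subunit of ATP synthase and reached 12610 ± 2383 TPM in E18.5 libraries labelled dcKO, 10521 ± 564 TPM in E18.5 ff, 7986 ± 196 TPM in E12.5 dcKO and 8353 ± 260 TPM in E12.5 ff (SD, n = 4, 4, 3 and 3). Next came mt-Co1, the catalytic subunit of complex IV, with 6181 ± 959 TPM, 5085 ± 725 TPM, 4228 ± 232 TPM and 3687 ± 562 TPM. The complex I subunit mt-Nd1 and mt-Cytb, the core subunit of complex III, held places 3 and 4, and their ranges overlapped in every group. Both rRNAs and mt-Nd6 stood near the bottom, with mt-Rnr1 at 573 ± 153 TPM, 431 ± 79.8 TPM, 248 ± 14.7 TPM and 179 ± 22.7 TPM in the same order of groups.

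The order below mt-Atp8 depends on the copies. With TPM of near-identical copies added, mt-Co3, a core subunit of complex IV, moved to place 2 in every group, at 7337 ± 958 TPM in E18.5 libraries labelled dcKO, 7452 ± 932 TPM in E18.5 ff, 6295 ± 512 TPM in E12.5 dcKO and 5261 ± 481 TPM in E12.5 ff. mt-Atp6, the proton-channel subunit of ATP synthase, and mt-Co2, the complex IV subunit that receives electrons from cytochrome c, then held places 3 and 4 in either order. mt-Co1 stood at place 5. Without the copies, mt-Co2 stood at places 12 to 14.

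**Figure D2:**
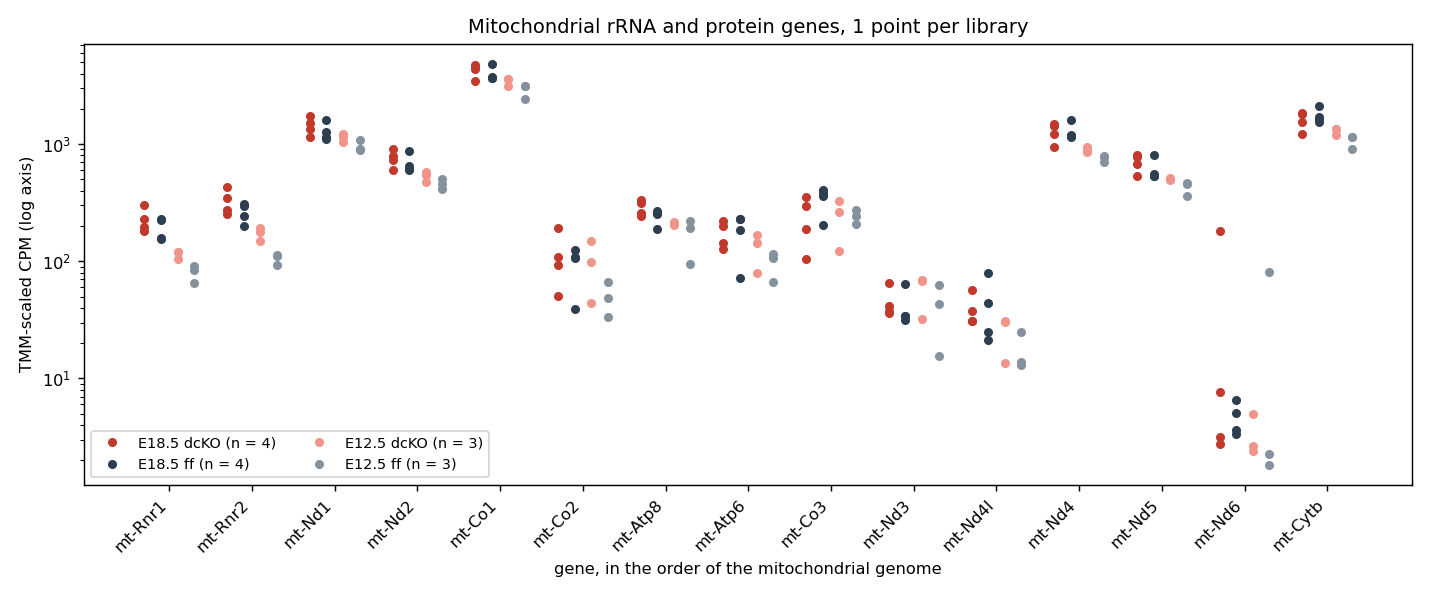
CPM on a log axis for the 15 protein and rRNA genes in each of the 14 libraries, scaled for library composition over all 14. The members without a near-complete nuclear copy lie close together within a group, mt-Co2, mt-Co3, mt-Atp6, mt-Nd3 and mt-Nd4l scatter more, and mt-Nd6 stands high in the 2 shallow libraries.

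The count of mt-Atp8 was low in the libraries with the longest fragments. The ratio of count to TPM gave a fitted mean fragment length of 170 to 219 nt, so that only 20.5 to 49.3 of the 204 bases of mt-Atp8 could start a fragment. E12.5 ff replicate 2 had the longest fragments, 219 nt, and the lowest mt-Atp8 count, 93.9 CPM, against 190 to 220 CPM in the other E12.5 libraries. In TPM, the same library stood at 8124 within the range of 7801 to 8636 over the E12.5 libraries. E18.5 ff replicate 2 had the second longest fragments, 195 nt, and the lowest mt-Atp8 count at that stage, 178 CPM.

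At E12.5 the dcKO libraries held more mitochondrially encoded RNA by count than the ff libraries, but no member passed the adjusted threshold of 0.05. By edgeR's quasi-likelihood test 0 of 15 members were called, against 0.19% of all 17853 genes tested, and 7 of 15 had an unadjusted p below 0.05, against 19.2% of all genes. The fold was positive for 13 of 15, with a median log2 fold change of 0.28 over members and 0.01 over all genes tested. Without ff replicate 1, the shallow library, 3 of 15 had an unadjusted p below 0.05, where 3930 of 18206 genes did. The 2 groups did not overlap, with dcKO above, for 5 members, mt-Rnr1, mt-Rnr2, mt-Nd4, mt-Nd5 and mt-Cytb, against 13.5% of all genes. The values below are CPM scaled for library composition within the stage.

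The largest fold among members whose groups did not overlap was that of mt-Rnr2, the large-subunit rRNA. It had 149, 194 and 179 CPM in E12.5 dcKO, against 112, 93.3 and 113 CPM in E12.5 ff. Every dcKO library exceeded every ff library, with a log2 fold change of 0.72 (SE 0.11, edgeR adjusted p = 0.051). mt-Rnr1, the small-subunit rRNA, had 105, 121 and 120 CPM in E12.5 dcKO, against 91.1, 65.7 and 83.4 CPM in E12.5 ff. Its log2 fold change was 0.54 (SE 0.12, edgeR adjusted p = 0.082), again without overlap. DESeq2's Wald test, with Benjamini-Hochberg adjustment over the same genes, called 3 members higher, mt-Rnr2 (adjusted p = 6.58e-07), mt-Rnr1 (0.0013) and mt-Nd4 (0.0147), where 6.74% of all genes were called. The authors' deposited table gives the same 3 genes an adjusted p of 7.2e-07, 0.0012 and 0.0087. Leaving out dcKO replicate 1, edgeR called mt-Rnr2 and mt-Rnr1 (adjusted p = 0.0081 and 0.048), where 3.12% of all genes were called.

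Of the complex I subunits, mt-Nd4, mt-Nd5, mt-Nd1 and mt-Nd2 had smaller folds than the rRNAs. mt-Nd4, one of the proton-pumping subunits, had 862, 944 and 913 CPM in E12.5 dcKO, against 716, 770 and 794 CPM in E12.5 ff. Its groups did not overlap (log2 fold change 0.25, SE 0.07, edgeR adjusted p = 0.12). mt-Nd5, another pumping subunit, had 516, 492 and 501 CPM in E12.5 dcKO, against 360, 464 and 454 CPM in E12.5 ff, also without overlap. mt-Nd1, which lines the quinone site, had 1046, 1213 and 1151 CPM in E12.5 dcKO, against 924, 889 and 1082 CPM in E12.5 ff, where 1 ff library exceeded the lowest dcKO library. mt-Nd2, a further pumping subunit, had 479, 573 and 546 CPM in E12.5 dcKO, against 414, 456 and 499 CPM in E12.5 ff, with overlap. Their log2 fold changes were 0.24 for mt-Nd5, 0.24 for mt-Nd1 and 0.22 for mt-Nd2, none past the threshold.

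In complexes III and IV, mt-Cytb had 1208, 1345 and 1344 CPM in E12.5 dcKO, against 925, 1142 and 1147 CPM in E12.5 ff. The groups did not overlap, and the fold did not pass (log2 fold change 0.28, SE 0.10, edgeR adjusted p = 0.18). mt-Co1 had 3154, 3591 and 3589 CPM in E12.5 dcKO, against 2436, 3126 and 3156 CPM in E12.5 ff, with 1 dcKO library just below the highest ff library. mt-Co3 had 265, 123 and 325 CPM in E12.5 dcKO, against 245, 275 and 209 CPM in E12.5 ff. Its dcKO libraries spread over a wider range than its ff libraries, and its log2 fold change was −0.03 (SE 0.38). For ATP synthase, mt-Atp6 had 143, 79.3 and 168 CPM in E12.5 dcKO, against 67.6, 115 and 106 CPM in E12.5 ff, with partial overlap. mt-Atp8 had 204, 214 and 216 CPM in E12.5 dcKO, against 193, 94.5 and 222 CPM in E12.5 ff, and the low value belongs to the ff library with the longest fragments. The remaining plus-strand members, mt-Co2, mt-Nd3 and mt-Nd4l, were below 150 CPM in each library and overlapped between groups. Their log2 fold changes were 0.93 (SE 0.52), 0.57 (SE 0.63) and 0.50 (SE 0.43), none past the threshold.

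Other properties of the E12.5 libraries moved with genotype too. The summed erythroid markers, with all 10 of 10 genes detected, ranged from 4128 to 5159 CPM in dcKO and from 3240 to 3917 CPM in ff. The summed choroid plexus markers, also 10 of 10, ranged from 372 to 396 CPM in dcKO and from 190 to 366 CPM in ff. The 8 telencephalon markers summed to 1063 to 1130 CPM in dcKO and to 1332 to 1639 CPM in ff, and the 6 microglial markers to 51.7 to 55.8 CPM in dcKO and to 46.7 to 49.6 CPM in ff, with all of them detected. None of these sums overlapped between genotypes. The 8 meningeal markers, all detected, summed to 1723 to 2036 CPM in dcKO and to 559 to 2527 CPM in ff, where the lowest value was that of ff replicate 1. The 6 endothelial markers summed to 165 to 172 CPM in dcKO and to 170 to 186 CPM in ff. The fitted fragment length was 170 to 178 nt in dcKO and 179 to 219 nt in ff. Their part in the difference was not tested. With offsets for length and GC content the log2 fold changes of mt-Rnr1, mt-Nd4 and mt-Cytb were 0.34, 0.11 and 0.087, none past the threshold, and mt-Rnr2 was called at 0.60 (edgeR adjusted p = 0.028), where 0.896% of all genes were called. With DESeq2 size factors edgeR called 1 member, mt-Rnr2, against 0.314% of all genes. With no filter on low counts it called 2, both rRNAs, against 0.857%.

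As shares of all counts at E12.5, all members together took 0.835%, 0.917% and 0.942% in dcKO, against 0.657%, 0.752% and 0.786% in ff. The dcKO libraries were higher in every pairing (log2 difference 0.30, two-sided exact permutation p = 0.1, the smallest that 3 against 3 allows). In summed TPM the relative gap was smaller, with 21778, 22695 and 22954 in dcKO, against 19936, 21445 and 21562 in ff. The rRNA share was 0.0255%, 0.0319% and 0.0304% in dcKO, against 0.0199%, 0.0158% and 0.0192% in ff (log2 difference 0.68, exact permutation p = 0.1). The ratio of rRNA to plus-strand protein counts was 0.0315 to 0.0360 in dcKO and 0.0215 to 0.0317 in ff, which overlap slightly (log2 difference 0.38, exact permutation p = 0.2, adjusted over 4 ratios 0.8). With copies added to the protein counts it was 0.0201 to 0.0214 in dcKO and 0.0144 to 0.0198 in ff, without overlap. In TPM of the genes alone it was 0.0194 to 0.0220 and 0.0131 to 0.0177, also without overlap. With p-values adjusted over 4 classes, the shares had an adjusted p of 0.133.

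At E18.5 no member passed the test between genotypes. edgeR called 0 of 15, against 32.2% of all 17974 genes tested, and 0 of 15 had an unadjusted p below 0.05, against 43% of all genes. DESeq2's Wald test also called 0, against 34.3% of all genes. The fold was positive for 11 of 15, with a median log2 fold change of 0.20 over members and 0.03 over all genes. Without dcKO replicate 1, the shallow library, it was positive for 9 of 15 with a median of 0.092, mt-Rnr1 had a log2 fold change of 0.10, and mt-Nd4 stood at −0.064 in place of 0.047.

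For both rRNAs, replicates 1 and 3 were the highest of the 4 libraries labelled dcKO. mt-Rnr2 had 452, 275, 345 and 251 CPM in E18.5 libraries labelled dcKO, against 303, 238, 294 and 198 CPM in E18.5 ff. The groups overlapped (log2 fold change 0.35, SE 0.22, edgeR adjusted p = 0.28). mt-Rnr1 had 318, 196, 231 and 180 CPM in libraries labelled dcKO, against 222, 151, 224 and 157 CPM in ff, with a log2 fold change of 0.28 (SE 0.23). Replicates 1 and 3 labelled dcKO had 64.2 and 50.7 CPM of the adult haemoglobin gene Hbb-bs, against 217 to 588 CPM in the other 6 E18.5 libraries, and the part of that difference in the rRNA values was not tested.

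Complex I at E18.5 followed the same pattern between libraries. mt-Nd1 had 1823, 1167, 1529 and 1355 CPM in libraries labelled dcKO, against 1579, 1090, 1238 and 1155 CPM in ff. mt-Nd2 had 952, 607, 798 and 728 CPM in libraries labelled dcKO, against 855, 585, 636 and 614 CPM in ff. mt-Nd4 had 1575, 950, 1423 and 1217 CPM in libraries labelled dcKO, against 1559, 1135, 1168 and 1135 CPM in ff. In each, replicates 1 and 3 labelled dcKO and ff replicate 1 were high, and the groups overlapped. mt-Nd5 had 823, 541, 800 and 670 CPM in libraries labelled dcKO, against 792, 542, 530 and 533 CPM in ff. The log2 fold changes of these 4 genes were 0.21, 0.20, 0.05 and 0.24, with SE of 0.16 to 0.18.

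mt-Cytb had 1922, 1220, 1810 and 1552 CPM in libraries labelled dcKO, against 2071, 1608, 1674 and 1526 CPM in ff at E18.5. It was among the 4 members with a negative fold (−0.08, SE 0.15). mt-Co1 had 4873, 3508, 4759 and 4351 CPM in libraries labelled dcKO, against 4708, 3575, 3608 and 3721 CPM in ff. mt-Co3 had 370, 105, 191 and 295 CPM in libraries labelled dcKO, against 397, 199, 355 and 381 CPM in ff, and the log2 fold change was −0.49 with an SE of 0.43. With its copy added the log2 fold change was −0.13 (SE 0.11). mt-Co2 had 53.5, 93.0, 109 and 194 CPM in libraries labelled dcKO, against 121, 38.6, 106 and 108 CPM in ff. Both groups spanned more than their difference.

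Of the ATP synthase genes, mt-Atp8 had 353, 260, 318 and 243 CPM in E18.5 libraries labelled dcKO, against 261, 186, 255 and 254 CPM in E18.5 ff. Its log2 fold change of 0.29 (SE 0.15, edgeR adjusted p = 0.17) had the lowest unadjusted p of any member at this stage, 0.084. mt-Atp6 had 133, 143, 221 and 201 CPM in libraries labelled dcKO, against 223, 69.9, 181 and 231 CPM in ff, with a fold near 0. mt-Nd3 and mt-Nd4l stayed below 78 CPM in each library and overlapped. The share of counts in all members was 1.46%, 0.947%, 1.29% and 1.19% in libraries labelled dcKO, against 1.27%, 0.915%, 0.981% and 0.987% in ff (log2 difference 0.23, exact permutation p = 0.286). For rRNA the log2 difference of shares was 0.42 (exact permutation p = 0.171, where 4 against 4 allows 0.0286).

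**Figure D3:**
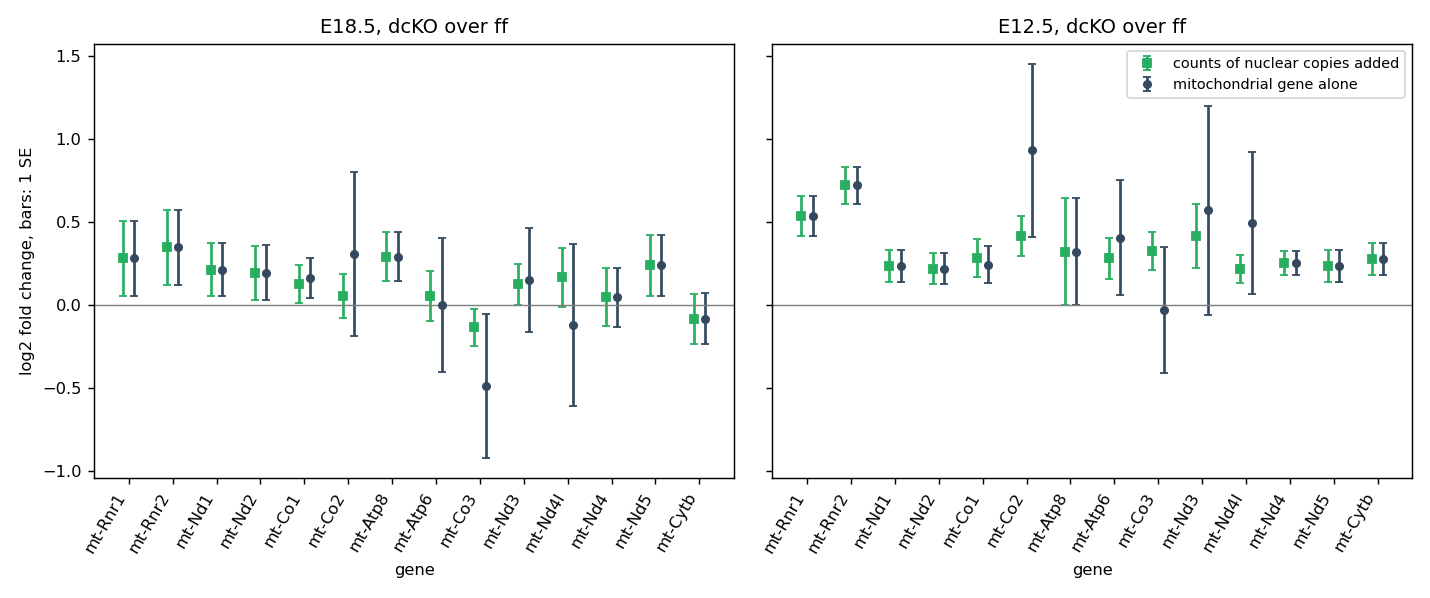
Log2 fold change of dcKO over ff with its SE from edgeR at E18.5 and at E12.5, for the 14 tested members other than mt-Nd6. Dark circles are the genes alone and green squares the genes with their nuclear copies added, which narrows the error of mt-Co2, mt-Co3, mt-Atp6, mt-Nd3 and mt-Nd4l. At E12.5 mt-Rnr2 (0.72) and mt-Rnr1 (0.54) stand above most others.

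Marker sums differed at E18.5 as well. The 6 microglial markers summed to 105 to 120 CPM in libraries labelled dcKO and to 69.2 to 87.9 CPM in ff, with all 6 detected. Of these, 4 rose, against 15.6% of all genes, among them the complement gene C1qb (log2 fold change 0.73, edgeR adjusted p = 0.00015). P2ry12 leaned the other way with overlap, at 4.96, 5.16, 4.72 and 3.98 scaled CPM in libraries labelled dcKO and 5.06, 5.48, 5.06 and 5.22 in ff. The 10 erythroid markers summed to 137 to 694 CPM in libraries labelled dcKO and to 859 to 1495 CPM in ff, and 6 to 10 of them were detected. The choroid plexus gene Ttr was at 0.965 CPM in replicate 3 labelled dcKO, against 731 to 1795 CPM in the other 7 libraries. Their part in the values above was not tested.

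Whether the genotype difference itself differed between stages was asked in 1 fit of all 14 libraries. edgeR called 0 of 15 members, against 16.5% of 19327 genes tested, and 1 of 15, mt-Nd6, had an unadjusted p below 0.05, against 31.4%. DESeq2's Wald test called 0, against 20.8%. The interaction, the fold at E18.5 minus the fold at E12.5, was negative for 14 of 15, with a median of −0.30 over members and −0.03 over all genes. mt-Cytb stood at −0.41 (SE 0.20, edgeR adjusted p = 0.17) and mt-Rnr2 at −0.42 (SE 0.27, edgeR adjusted p = 0.32). With copies added, mt-Co3 stood at −0.51 (SE 0.17, edgeR adjusted p = 0.056), and still 0 were called.

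More members passed between stages than between genotypes. In ff, 8 of 15 members rose in E18.5 cortex over E12.5 telencephalon and none fell, against 31.5% of all genes higher and 29.9% lower. These were mt-Rnr1, mt-Rnr2, mt-Nd1, mt-Nd2, mt-Nd4, mt-Nd5, mt-Co1 and mt-Cytb. The median log2 fold change was 0.58 over members and −0.0018 over all genes. In the libraries labelled dcKO, 7 of 15 rose at E18.5 and none fell, against 30.9% of all genes higher and 31.3% lower, with a median of 0.45 over members and 0.01 over all genes. Here mt-Cytb did not pass (0.30, SE 0.14, edgeR adjusted p = 0.074). The count in dcKO was 4 with no filter on low counts, against 17.4% of all genes higher. It was also 4 when E18.5 dcKO replicate 1 or 3 or any 1 of the 3 E12.5 dcKO replicates was left out. Without E12.5 dcKO replicate 1, 27.1% of all genes were higher. In either direction, 10636 of 20212 genes were called without E12.5 dcKO replicate 2 and 10667 of 20187 without replicate 3. These were 12002 of 19181 without E18.5 dcKO replicate 1 and 11325 of 19208 without its replicate 3. In ff, mt-Nd5 did not pass without the shallow libraries (log2 fold change 0.41, edgeR adjusted p = 0.057).

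The rRNAs moved most with stage among the called members. With scaling over all 14 libraries, mt-Rnr2 had 310, 244, 299 and 199 CPM in E18.5 ff, against 111, 93.4 and 113 CPM in E12.5 ff. Every E18.5 library lay above every E12.5 library (log2 fold change 1.32, SE 0.20, edgeR adjusted p = 7.9e-05). mt-Rnr1 had 227, 154, 227 and 158 CPM in E18.5 ff, against 90.3, 65.7 and 83.5 CPM in E12.5 ff (log2 fold change 1.28, SE 0.20, edgeR adjusted p = 0.00013). In dcKO the corresponding folds were 0.90 (SE 0.20) for mt-Rnr2 and 0.97 (SE 0.20) for mt-Rnr1, with adjusted p of 0.0015 and 0.00093 by edgeR.

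Among the mRNAs, mt-Nd4 had 1597, 1161, 1185 and 1138 CPM in E18.5 ff, against 710, 771 and 796 CPM in E12.5 ff. The groups were well apart (log2 fold change 0.74, SE 0.14). mt-Cytb had 2121, 1645, 1699 and 1530 CPM in E18.5 ff, against 916, 1142 and 1149 CPM in E12.5 ff (0.71, SE 0.14). mt-Nd2, mt-Nd5, mt-Co1 and mt-Nd1 rose by 0.58, 0.52, 0.45 and 0.42 on the log2 scale. In E18.5 libraries labelled dcKO over E12.5 dcKO, the folds of mt-Nd2, mt-Nd4, mt-Nd5, mt-Nd1 and mt-Co1 were 0.51, 0.49, 0.47, 0.35 and 0.32. With copies added, 13 of 15 members rose in ff, where 31.5% of all genes were higher, the exceptions being mt-Atp8 (0.53, edgeR adjusted p = 0.080) and mt-Nd6. In dcKO 8 did, where the background was 30.9%, and mt-Co1 did not pass there (0.27, edgeR adjusted p = 0.078). For the genes alone, mt-Co1 and mt-Nd1 did not pass in dcKO without the shallow libraries (edgeR adjusted p = 0.058 and 0.14).

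The ratio of rRNA to mRNA did not overlap between stages but did not pass the test. The ratio of rRNA to plus-strand protein counts was 0.0366 to 0.0529 in E18.5 ff and 0.0215 to 0.0317 in E12.5 ff (log2 difference 0.74). It was 0.0396 to 0.0592 in E18.5 libraries labelled dcKO and 0.0315 to 0.0360 in E12.5 dcKO (log2 difference 0.57). Neither pair overlapped, each with an exact permutation p of 0.0571, the smallest that 4 against 3 allows, and 0.229 when adjusted over the 4 ratios. The ratios of mt-Atp8 to mt-Atp6 and of mt-Nd4l to mt-Nd4, each a pair on 1 RNA, overlapped between the groups in all 4 comparisons.

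Members with a near-complete copy held the smaller part of the counts that they and their copies received in every library, except mt-Nd4l in E18.5 ff replicate 2. Of the counts of mt-Co2 and its copies together, 2.47% to 11.9% were assigned to mt-Co2. The share was 4.58% to 13.9% for mt-Atp6, 5.001% to 17.5% for mt-Co3, 8.26% to 24.8% for mt-Nd3 and 15.2% to 65.3% for mt-Nd4l. For mt-Co1, whose copies are shorter or more diverged, it was 90.6% to 97.8%, and for mt-Nd2 and mt-Nd4 above 99.9%.

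A pair of E12.5 libraries shows the division. In unscaled CPM, E12.5 dcKO replicate 2 had 125.03 for mt-Co3 and 2375 for its copy, and E12.5 dcKO replicate 3 had 331 for mt-Co3 and 2062 for its copy. The sums, 2500 and 2393, lie far closer together than the parts. The SD within groups on the log2 scale was 0.62 for mt-Co3 alone and 0.18 for the sum. It was 0.74 and 0.21 for mt-Co2, 0.58 and 0.23 for mt-Atp6, 0.64 and 0.25 for mt-Nd3, and 0.66 and 0.23 for mt-Nd4l. The other members, apart from mt-Atp8 and mt-Nd6, had an SD of 0.19 to 0.28.

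**Figure D4:**
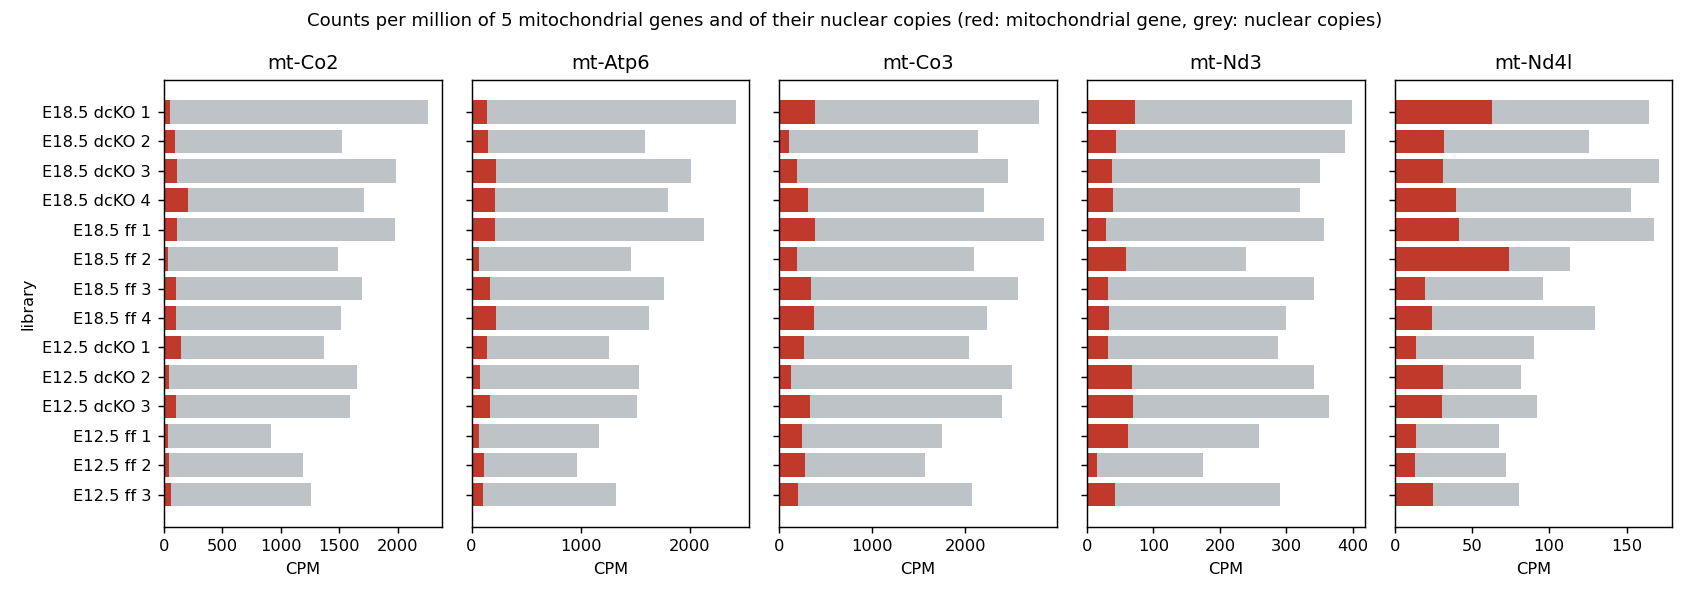
Unscaled CPM of 5 mitochondrial genes (red) stacked with that of their nuclear copies (grey), with 1 bar per library. The red part is small for mt-Co2, 2.47% to 11.9% of the bar, and varies more between libraries than the whole bar does.

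With copies added at E12.5, 12 of 15 members had an unadjusted p below 0.05, where 3435 of 17846 genes did. edgeR called 1 member, mt-Rnr2 (adjusted p = 0.0499), where 0.325% of all genes were called. Without ff replicate 1, 4 of 15 had an unadjusted p below 0.05, where 3934 of 18199 genes did. mt-Co2 with its copies had a log2 fold change of 0.42 (SE 0.12), in place of 0.93 (SE 0.52) alone. mt-Co3 with its copy had 0.33 (SE 0.12), in place of −0.03 (SE 0.38). Neither passed (edgeR adjusted p = 0.13 and 0.19). At E18.5 the addition left 0 members called, against 32.2% of all genes.

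mt-Nd6, the complex I subunit read from the other strand, stood apart in the shallow libraries. In unscaled CPM it had 199 in E18.5 dcKO replicate 1 and 79.7 in E12.5 ff replicate 1, against 1.83 to 7.78 in the other 12 libraries. As a percent of the counts of mt-Nd5, its neighbour on the opposite strand, it stood at 23.1% and 22.5% in those 2 libraries and at 0.396% to 1.23% elsewhere. The summed counts of 2958 genes annotated as antisense RNAs were 4820 and 4073 CPM in the same 2 libraries, against 1388 to 1871 CPM in the others. The strand setting of the authors' counting is not given in the sources used here, and the part of strand assignment in these values was not tested.

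**Figure D5:**
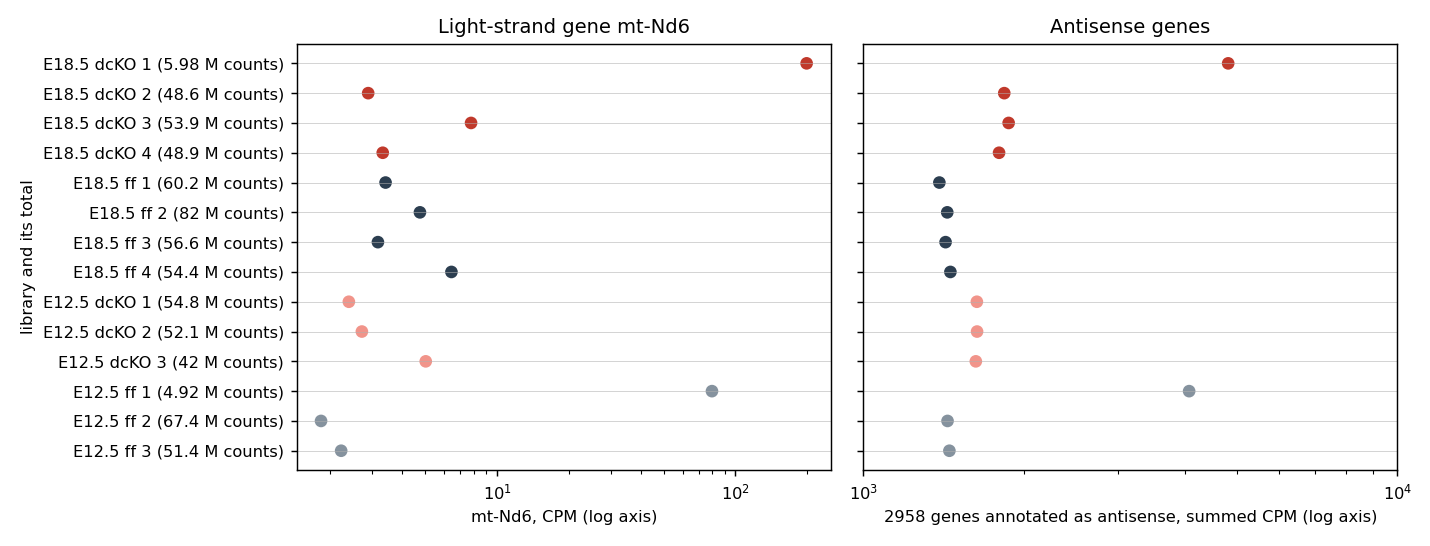
Unscaled CPM of mt-Nd6 and summed CPM of genes annotated as antisense RNAs, each on a log axis, with 1 point per library and the library total beside its name (M, counts in units of 1e+06). E18.5 dcKO replicate 1 and E12.5 ff replicate 1, the libraries with the lowest totals, are high in both panels.

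The genotype folds of mt-Nd6 turned with these libraries. The log2 fold change of dcKO over ff was −2.92 at E12.5 (SE 1.85) and 3.23 at E18.5 (SE 1.64), neither past the threshold. With both shallow libraries left out, an alternative chosen after seeing the data, the folds were 0.70 and −0.025, and the interaction changed to −0.75, against 5.96 with them. In ff, E18.5 over E12.5 stood at −2.23 with all libraries and at 1.19 without the shallow ones (edgeR adjusted p = 0.039). In the 12 deep libraries mt-Nd6 had 2.78, 7.61 and 3.16 CPM in E18.5 libraries labelled dcKO, 3.54, 4.96, 3.33 and 6.57 CPM in E18.5 ff, 2.38, 2.67 and 4.93 CPM in E12.5 dcKO and 1.84 and 2.26 CPM in E12.5 ff.

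The nuclear genes that copy, read and process the mitochondrial genome were taken as 8 lists with 110 genes, all of which were tested. At E12.5, 1 of 110 rose and 0 fell, against 0.0392% higher and 0.151% lower over all genes. It was Tk2, the mitochondrial thymidine kinase that supplies nucleotides for the genome, with 54.0 ± 0.92 CPM in dcKO and 39.1 ± 1.44 CPM in ff (SD, n = 3 each), a log2 fold change of 0.46 (SE 0.07, edgeR adjusted p = 0.047). The count was 0 when ff replicate 2 or 3 or dcKO replicate 2 or 3 was left out. Over all genes, 77 of 18341, 6 of 18389, 0 of 18266 and 0 of 18328 were called in these fits, in that order. At E18.5 Tk2 stood at 55.2 ± 3.47 CPM in libraries labelled dcKO and 54.9 ± 3.40 CPM in ff.

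At E18.5, 20 of 110 rose and 13 fell, against 15.6% higher and 16.6% lower over all genes. Of the 13 replication and repair genes, 6 rose and none fell. The polymerase Polg had 78.8 ± 5.97 CPM in libraries labelled dcKO and 60.1 ± 1.89 CPM in ff (SD, n = 4 each), a log2 fold change of 0.39 (SE 0.06, edgeR adjusted p = 0.00038). The topoisomerase Top3a (0.44), the nuclease Endog (0.56) and the helicase-nuclease Dna2 (0.44) rose too. The list's median was 0.26, and that of all genes was 0.03. Of the 9 genes for nucleotide supply, 1 rose and 2 fell, among them Rrm2b, the p53-induced small subunit of ribonucleotide reductase (log2 fold change −0.35, SE 0.07, edgeR adjusted p = 0.0023), with 16.4 ± 0.89 CPM in libraries labelled dcKO and 20.8 ± 0.86 CPM in ff.

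Of the 10 transcription genes, 1 rose at E18.5, the rRNA methyltransferase Tfb1m (0.33, edgeR adjusted p = 0.049). Tfam, which packs the genome and starts transcription, had 44.0 ± 1.31 CPM in libraries labelled dcKO and 44.9 ± 1.69 CPM in ff (log2 fold change −0.03, SE 0.05). Polrmt, the RNA polymerase, stood at −0.01 (SE 0.07), and Lrpprc, which stabilises the mRNAs, at 0.05 (SE 0.04). At E12.5 the folds of Tfam, Polrmt and Lrpprc were 0.06, −0.08 and 0.09, none past the threshold.

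Of the 23 genes for RNA processing, stability and decay, 4 rose and 4 fell at E18.5, where 15.6% of all genes rose and 16.6% fell. Fastkd5, which acts on RNA junctions without a tRNA, had 11.2 ± 0.71 CPM in libraries labelled dcKO and 14.8 ± 1.04 CPM in ff (log2 fold change −0.39, edgeR adjusted p = 0.0043). Its relatives Fastkd2 and Fastkd1 fell as well (−0.30 and −0.34), and the RNA helicase Supv3l1 of the decay machinery rose (0.22). Of the 15 RNA modification genes 3 rose and 1 fell. These were the rRNA methyltransferase Nsun4 (0.43), the tRNA-modifying enzymes Trmu (0.32) and Gtpbp3 (0.29), and Trit1 (−0.24), which also modifies tRNAs. Of the 12 translation factors 1 rose, the recycling factor Gfm2 (0.23), and 3 fell, the recycling factor Mrrf (−0.49), the membrane insertase Oxa1l (−0.23) and the peptidyl-tRNA hydrolase Mrpl58 (−0.19).

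Of the 20 mitochondrial aminoacyl-tRNA synthetases 2 rose and 3 fell, where 15.6% of all genes rose and 16.6% fell. The prolyl enzyme Pars2 had 6.63 ± 0.39 CPM in libraries labelled dcKO and 10.5 ± 0.15 CPM in ff (log2 fold change −0.65, SE 0.09, edgeR adjusted p = 0.00018). The alanyl enzyme Aars2 (−0.32) and the seryl enzyme Sars2 (−0.30) fell too, and the isoleucyl enzyme Iars2 rose (0.27). Of the 8 regulators of mitochondrial biogenesis 2 rose, the coactivators Ppargc1a (0.30, edgeR adjusted p = 0.024) and Ppargc1b (0.84, edgeR adjusted p = 0.031). The number of nuclear genes called was 33 in all, where 5779 of all 17974 genes were called. It was 18 when ff replicate 3 was left out, where 4609 of 18270 were called. Without dcKO replicate 4 it was 20, where 4417 of 18242 were called.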

How the data were processed

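Poly(A)-selected stranded RNA-seq libraries of 14 samples were analysed. Per the submitters' processing notes, the authors used Trim Galore, STAR, RSEM and DESeq2. Versions, genome build and strand setting are not given in the sources used here. The deposited values used are RSEM expected counts and TPM per gene, and log2 fold changes with p-values in the authors' deposited DESeq2 tables, whose mean normalized signal (baseMean, by the authors) was not used. In the expected count tables, 3.30% to 6.11% of values per library were not whole.

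Expected counts were rounded. Each stage was fitted with edgeR 4.0.16 (R 4.3.3, limma 3.58.1), using TMM scaling, filterByExpr and the robust quasi-likelihood F test, with Benjamini-Hochberg adjustment over all genes and a threshold of 0.05. A fit of all 14 libraries with 4 groups gave the interaction and the stage comparisons. Shares and ratios used log2 values and two-sided exact permutation tests (scipy 1.17.1), and alternatives on TPM used log2(TPM + 1). DESeq2 1.42.0 served as an alternative. The scripts were tested on simulated data. Copies were found by identical runs of at least 100 bases between GENCODE M21 transcripts. Intervals and floors cover counting error only.

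Members and gene lists were chosen with earlier results of these data known. The rule for naming was all members, per library where a group averaged at least 100 CPM, and up to 4 called genes of lowest p per nuclear list and stage, plus Tfam, Polrmt, Lrpprc, Tk2 and Rrm2b. Replicate numbers follow column order within a group and pair nothing. Alternatives were other scaling, no filter, DESeq2's Wald test, TPM, sex as a covariate, 1 common fit, length and GC offsets, copies added and libraries left out.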

Additional observations from a re-analysis of the deposited data

Results flagged for a closer look

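The values of each member, class and ratio in the 2 groups of 4 libraries were checked for 1 library far from the other 3 by Dixon's test of the gap over the range. Of 46 sets of values, 8 met this, where chance gives about 1 in 20 per set. The sets are not independent, because shares and ratios reuse the counts of the members. The 8 are therefore not separate results, and their number was not tested against chance.

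In E18.5 libraries labelled dcKO, replicate 1 stood apart for mt-Nd6 with 190.3 CPM, against 2.78 to 7.61 CPM in the other 3. The same library stood apart in the share of mt-Nd6, 0.01988% of its counts, and in the ratio of mt-Nd6 to plus-strand protein counts, 0.01463. It holds 5980840 counts and was also high in summed antisense RNAs, and the part of depth or strand assignment was not tested.

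In E18.5 ff, replicate 1 stood apart upwards for 3 members, with mt-Co1 at 4708 CPM (3575 to 3721 in the others), mt-Nd4 at 1559 CPM (1135 to 1168) and mt-Nd5 at 791.9 CPM (530 to 542). Replicate 2 of that group stood apart for mt-Nd3, high at 62.02 CPM (30.6 to 34.0 in the others), and for mt-Atp8, low at 185.6 CPM (254 to 261). Gm28438, the nuclear copy of mt-Nd3, was lowest in that library, at 188 CPM (272 to 340 in the others). The part of the division of reads between gene and copy was not tested. That library had the longest fitted fragments at its stage, 195 nt.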

How the results depend on the processing

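Alternatives that add copies or leave out both shallow libraries or E18.5 dcKO replicates 1 and 3 were chosen after seeing the data. Apart from single libraries left out, 682 values kept direction and side of the threshold, 24 gained and 10 lost a call, 52 uncalled values or counts moved, some of them with a change of sign, and 2 turned in sign and gained a call. With single libraries left out these were 934 kept, 9 gained, 23 lost and 56 moved. The cause of these changes was not tested unless stated. These 2 were mt-Nd6 between stages in ff, 1.19 without the shallow libraries, with or without copies. Without those libraries uncalled folds also changed sign, those of mt-Nd6 at E12.5 (0.70), at E18.5 (−0.025) and in the interaction (−0.75), and at E18.5 those of mt-Nd4 (−0.064), mt-Nd3 (−0.052) and mt-Atp6 (0.098). At E12.5, where edgeR called 0 members, 1 was called with DESeq2 size factors, 1 with copies added, 1 with length and GC offsets, 2 with no filter and 3 by the Wald test, with a range of 0 to 2 over single libraries left out. In the stage comparison in ff, 13 members were called with copies added. In dcKO 4 were called with no filter. Leaving out single libraries gave 4 to 8 there, where 10636 to 12575 genes in all were called. Of the 110 nuclear genes, 3 were called at E12.5 by the Wald test, where 6.74% of all genes were called. Leaving out single libraries gave 0 to 1 at E12.5, where 0 to 571 genes in all were called. At E18.5 it gave 18 to 33, where 4417 to 5723 were called. Without the shallow libraries the log2 difference of the mt-Nd6 share was 0.67 at E12.5 and −0.019 at E18.5, and leaving out single libraries gave −2.06 to 0.67 and −0.019 to 2.02. For the ratio of mt-Nd6 to protein genes these were 0.46 and −0.15, with ranges of −2.38 to 0.46 and −0.15 to 1.73. The log2 difference of mt-Atp8 over mt-Atp6 was −0.38 in TPM at E12.5 (range −0.52 to 0.38 over single libraries) and −0.017 at E18.5 without the shallow library (range −0.017 to 0.48). That of mt-Nd4l over mt-Nd4 was −0.026 with copies added at E12.5. At E18.5 it was −0.021 in TPM and −0.063 without the shallow library (range −0.19 to 0.46). No paired analysis was possible because the count columns carry no replicate numbers shared between groups. Depth limits mt-Nd6, at 114 to 419 reads in the deep libraries, and the tRNAs.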
